A study of Mus musculus with 12 samples.

Results

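Kidneys of Pparg null mice (PpargΔ/Δ in the labels) were compared with kidneys of control mice of the same background at 3 weeks of age. The comparison used 6 of the 12 arrays of the series, chosen by their labels, with 3 Pparg null and 3 mixed control arrays, all Mixed C57BL6/SV129. Each hybridisation used whole-kidney RNA pooled from 3 mice, so the 6 arrays stand for 18 mice and the spread between arrays is that between pools. The other 6 arrays, 3 of AZIP mice and 3 of FVB controls (both of strain FVB, also at 3 weeks), helped to estimate each gene's spread and served to test where the effects of both lines differ. AZIP mice carry a transgene that blocks the formation of fat cells, so both lines lack fat tissue. All mice lived in a cycle of 12 h light and 12 h dark and were killed with CO2. The sources used here do not state how the Pparg deletion was made, which cells carry it, the sex of the mice or the hour of collection.

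PPARγ, the product of Pparg, is a nuclear receptor that pairs with RXR on DNA elements of the DR1 type and is needed to make fat cells, so mice that lack it have hardly any fat tissue. In the kidney it is known from the collecting duct, where PPARγ agonist drugs promote sodium and water retention, and from endothelium and urothelium. PPARα, which binds the same elements, drives fatty acid oxidation in the proximal tubule, the segment that reabsorbs most of the filtrate and burns fatty acids to do so.

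The Pparg probe set itself read 8.0, 8.19 and 8.01 on the Pparg null arrays and 7.9, 7.97 and 8.02 on the control arrays. The groups overlapped and the difference of 0.11 ± 0.06 did not pass the test (limma adjusted p = 0.339). Since the deleted part of the gene is not given and 1 probe set pools probes from several exons, its level checks no genotype, and the groups are those of the labels. Ppara, the gene of PPARα, was lower (10.47, 10.36 and 10.3 against 10.72, 10.67 and 10.65, a difference of -0.3 ± 0.08 with limma adjusted p = 0.0448), but lost the threshold without any of 8 arrays, among them each of the 3 mixed controls (limma adjusted p up to 0.141 without Pparg null 3). Ppargc1a, which encodes the coactivator PGC-1α, rose from 11.46, 11.54 and 11.53 to 11.76, 11.82 and 11.79 (0.28 ± 0.05, limma adjusted p = 0.00878). Ppard (0.1 ± 0.07) and the partner receptor Rxra (0.1 ± 0.08) did not pass the test.

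Values are log2 RMA levels as deposited, differences are Pparg null minus mixed control on that scale with the SE from limma, and n is 3 arrays per group throughout. A gene was called when its adjusted p was under 0.05 over all 19938 genes, which held for 1055 genes (5.29%), 532 of them higher (2.67%) and 523 lower (2.62%). The number of calls depended on single arrays and was 330 without mixed control 1. The other arrays whose absence moved it by over 1.5 times were mixed controls 2 and 3 and Pparg null 2 and 3, with 463, 627, 482 and 487 calls. The text therefore leads with stable calls, genes that passed in the same direction in the fit on all arrays and in each of 12 fits that left out 1 array. There were 262 stable calls (1.31% of the genes tested), 139 higher (0.697%) and 123 lower (0.617%). Their median size was 0.511, and 106 of them differed by 1.5-fold or more, 30 by 2-fold or more. In all 262 the Pparg null and control arrays did not overlap, which was true of 26.1% of all genes. For most gene lists the count, the stable count and the median are given, to be read against 5.29% of all genes called, 1.31% stable and a median of -0.00887 over all genes. All genes include many near the floor, such as 1027 olfactory receptor genes with 0.0974% called. With genes under percentile 50 of mean level left out, 1387 of the fewer genes left were called. The share called is thus above 5.29% among genes of higher level, and a list share modestly above 5.29% does not set that list apart. Where leaving out 1 array cut a list count of 5 or more by over 1.5 times, the lowest count is given with its array, and most such counts were also lower without the other arrays just named. Counts under 5 could fall by as much through the loss of a single gene. A gene can stand in several lists, as Pdk4 and Krt19 do. The lists and their members were chosen with earlier results of these data known, so their shares are descriptions and no test. Because whole kidneys were measured, fewer cells of a type and less RNA per cell cannot be told apart in any list.

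**Figure D1:**
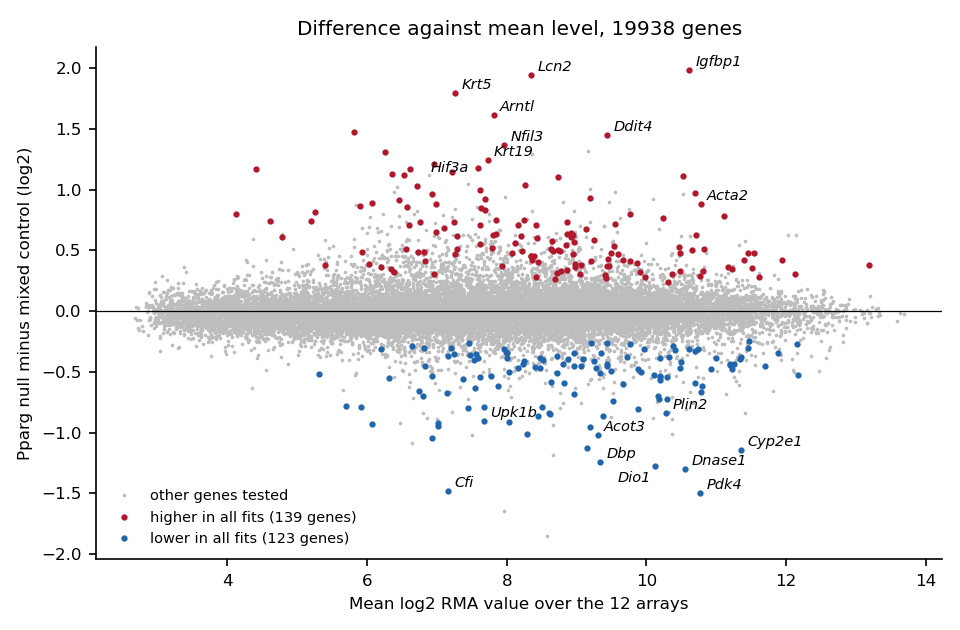
Each point is 1 of the 19938 genes, with its mean log2 RMA value over the 12 arrays on the horizontal axis and the difference Pparg null minus mixed control (log2) on the vertical axis. Red and blue points are the 139 higher and 123 lower stable calls, with Igfbp1 (1.99) and Lcn2 (1.94) at the top and Pdk4 (-1.5) and Cfi (-1.48) at the bottom of the coloured points.

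Kidney markers were high on all 6 arrays. Umod of the thick ascending limb read 13.02 to 13.14 and Slc34a1, the phosphate carrier of the proximal tubule, 13.15 to 13.23 over the 6 arrays. Array medians lay between 7.17 and 7.21 in the series, and the mean correlation within the 4 groups was 0.9967 to 0.9979. In a principal component analysis of the 6 arrays the first component (44.3% of the variance) set the groups apart, with Pparg null arrays at -12.77 to -10.24 and controls at 9.36 to 13.62. The second component (23%) set Pparg null 1 apart at 15.81, against -9.06 to 5.17 for the other 5 arrays. Values of that array in genes of immune cells and tubular injury are given with those genes below.

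Genes that PPARα is known to drive fell in Pparg null kidneys. Of 34 measured targets 18 fell (52.9%), 6 of them stable, none rose, and the median difference was -0.36. The count was 7 without Pparg null 3, which had the lowest Pdk4, Acot3 and Plin2 of the 6 arrays. Pdk4, the kinase that shuts off pyruvate dehydrogenase when fatty acids are the fuel, read 10.46, 9.86 and 9.45 in Pparg null kidneys and 11.43, 11.34 and 11.5 in controls. All 3 Pparg null arrays lay below all controls and the spread among them was wider than among controls (-1.5 ± 0.23, 2.83-fold lower, limma adjusted p = 0.00502). Acot3, a peroxisomal acyl-CoA thioesterase, read 8.67, 8.66 and 8.41 against 9.86, 9.54 and 9.41 (-1.02 ± 0.16, limma adjusted p = 0.0053). Its relative Acot4 read 9.84, 9.78 and 9.78 against 10.42, 10.34 and 10.27, a tight pair of groups with no overlap (-0.54 ± 0.06, limma adjusted p = 0.00164). Vnn1, a pantetheinase that helps to recycle coenzyme A, fell by 0.62 ± 0.11, from 11.48, 11.15 and 11.16 to 10.81, 10.58 and 10.55. Cpt1a, which admits fatty acids to mitochondria, read 11.9, 11.76 and 11.72 against 12.07, 11.95 and 11.94 and did not pass the test (-0.2 ± 0.06, limma adjusted p = 0.0635). Closely related genes such as Acot1 to Acot4 may share probe signal, which was not tested.

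The DR1 element is the sequence on which PPARs act, so the promoters of the list were searched for its core, GGNCAAAGG, on both strands of the 300 bases that RefSeq places from 250 before to 50 after each start (GRCm38.p6). Promoters are counted by gene here and below, so a gene with several starts counts once, if any of its windows holds the motif. The core occurred in 3 of 26 target promoters (11.5%), those of Pdk4, Acot4 and Ech1, against 2.12% over all 27025 genes with a promoter. In the list of PPARγ targets 1 of 14 promoters held it (7.14%), that of Btnl9. Shown are Pdk4, the largest stable fall with the core, and Acot4 and Btnl9, chosen after their values were seen, with the cores in capitals. They lie at chr6:5496419-5496528 (minus strand), chr12:84038349-84038378 (plus strand) and chr11:49187299-49187339 (minus strand). The cores begin 235 and 169 bases before the start of Pdk4, 10 bases before that of Acot4 and 238 bases before that of Btnl9.
Pdk4: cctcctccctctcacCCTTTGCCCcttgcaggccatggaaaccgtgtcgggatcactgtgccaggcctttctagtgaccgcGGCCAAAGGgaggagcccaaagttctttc
Acot4: ggctcagccccgaagcatgaCCTTTGGCCg
Btnl9: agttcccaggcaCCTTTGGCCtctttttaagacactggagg
A match to these letters is a description of the window and no evidence of binding.

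Lipid droplet genes fell with the PPARα targets. Of 23 members 6 fell and 1 rose, 5 of the falls were stable, and the median was -0.15. Plin2, the coat protein of droplets outside fat cells, read 9.93, 9.71 and 9.52 in Pparg null kidneys and 10.47, 10.44 and 10.77 in controls (-0.84 ± 0.11, limma adjusted p = 0.00288). Plin5, which ties droplets to mitochondria, read 7.27, 7.41 and 7.23 against 7.91, 7.82 and 7.81 (-0.54 ± 0.07, limma adjusted p = 0.00171). Neither gene had any overlap between the groups. Lipe, the hormone-sensitive lipase, fell by 0.59 ± 0.09 (8.56, 8.46 and 8.31 against 9.13, 9.04 and 8.93). Lipa, the lysosomal lipase, fell by 0.48 ± 0.07, and G0s2, which inhibits the main triglyceride lipase, by 0.39 ± 0.06. That lipase itself, encoded by Pnpla2, was 0.22 ± 0.1 higher and did not pass the test. Genes of coat, lipases and lipase inhibitor thus moved the same way among the stable calls.

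Peroxisomal genes showed 7 falls and no rise among 35 members (3 stable, median -0.15, with 3 called without Pparg null 3 and 11 without Pparg null 1). The stable ones were Abcd3, a carrier of acyl-CoA into peroxisomes (-0.45 ± 0.07, 11.46, 11.41 and 11.21 against 11.87, 11.79 and 11.77), the CoA hydrolase Nudt19 (-0.59 ± 0.1) and the NADH pyrophosphatase Nudt12 (-0.47 ± 0.06). Outside the list, Baat, which conjugates bile acids in peroxisomes, fell by 0.7 ± 0.1. Chosen after their values were seen, Hacl1, a lyase of peroxisomal α-oxidation, fell by 0.38 ± 0.06 and Decr2, the peroxisomal dienoyl-CoA reductase, by 0.31 ± 0.05. Among 28 genes of mitochondrial fatty acid oxidation 5 fell and none rose (median -0.16), and the only stable one was Cpt2, the inner-membrane carnitine palmitoyltransferase, at 10.95, 10.98 and 10.78 against 11.44, 11.28 and 11.31 (-0.44 ± 0.07, limma adjusted p = 0.0082). The count for that list was 1 without Pparg null 3. Slc25a42, a mitochondrial carrier of coenzyme A, fell by 0.72 ± 0.11, and Pank1, which starts coenzyme A synthesis, by 0.43 ± 0.06. Acyl-CoA thioesterases, which release coenzyme A from fatty acids, had 5 falls and no rise in 13 members, 3 of them stable (Acot3, Acot4 and Acot12), and 3 were called without Pparg null 2.

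Downstream of fatty acid oxidation few genes of the energy machinery were called. Limma called none of 40 oxidative phosphorylation subunits (3 at an unadjusted p under 0.05), with a median of 0.0 and single differences from -0.22 to 0.09. Among 19 genes of the tricarboxylic acid cycle it called none either (5 at an unadjusted p under 0.05, median -0.02). In a wider family of 43 genes named for NADH dehydrogenase 1 fell, Ndufaf4, which helps to assemble the complex (-0.25 ± 0.05), and it missed the threshold when Pparg null 2 or 3 or mixed control 2 or 3 was left out (highest limma adjusted p = 0.0913). Atp5b, the β subunit of ATP synthase, read 13.16, 13.2 and 13.2 against 13.22, 13.19 and 13.2, an overlap of the groups. The SE of a difference had a median of 0.0698 over all genes.

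Few genes that PPARγ drives in fat and vessels fell. Of 22 members 3 fell and none rose (median -0.13), 1 of them stable, and 1 was called without mixed control 1. The stable one was Btnl9, a butyrophilin-like gene of endothelium, at 7.28, 7.37 and 7.57 against 7.88, 8.17 and 8.04 (-0.62 ± 0.09, limma adjusted p = 0.00335). Among endothelial markers Btnl9 was the stable call. Of 34 members 1 rose and 1 fell, the median was 0.04, and Pecam1 (0.02 ± 0.06) and Cdh5 (-0.03 ± 0.07) stayed within their spread. Fabp4, the fatty acid binding protein of fat cells and capillaries, read 9.74, 10 and 10.04 against 10.27, 10.24 and 10.28, with no overlap but short of the threshold (-0.34 ± 0.09, limma adjusted p = 0.0573). Cd36 (-0.24 ± 0.17) and Lpl (0.08 ± 0.07), which serve fatty acid uptake, did not pass. Markers of white fat, which can lie around a dissected kidney, were low in both groups. Adipoq read 4.28 to 4.38 in Pparg null and 4.33 to 4.6 in control kidneys, and Lep 5.01 to 5.2 and 5.04 to 5.43. Of the 15 white fat genes 1 rose and 1 fell (median -0.1).

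Lipid synthesis was split. Among 27 genes of fatty acid and triglyceride synthesis 3 rose and 2 fell (median -0.06), 2 and 1 of them stable, and 3 were called without Pparg null 2. Scd2, a stearoyl-CoA desaturase, rose from 9.97, 10 and 9.95 to 10.65, 10.72 and 10.86, a narrow band in each group (0.77 ± 0.06, 1.7-fold, limma adjusted p = 0.000227). Its relative Scd1 read 9.84, 9.9 and 8.99 against 10.99, 10.17 and 10.61 and did not pass (-1.01 ± 0.34, limma adjusted p = 0.117). Srebf1, the transcription factor of lipogenesis, rose by 0.32 ± 0.06, while malic enzyme Me1, a source of NADPH, fell by 0.39 ± 0.07. Fatty acid synthase, Fasn, differed by -0.06 ± 0.08. In the sterol pathway 2 of 20 genes rose and none fell (median 0.14, 16 above 0, with 5 called without AZIP 1), Msmo1 (1.01 ± 0.19) and Insig1 (0.77 ± 0.14). Neither was stable, since without mixed control 1 their limma adjusted p was 0.0634 and 0.0523, and Msmo1 also missed the threshold without Pparg null 2.

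Glucose handling differed in a few genes at its control points. Igfbp1, an insulin-repressed gene whose product binds IGFs in blood, had the largest stable rise of the comparison (1.99 ± 0.29, 3.96-fold). It read 11.86, 11.47 and 11.41 in Pparg null kidneys and 9.83, 9.55 and 9.39 in controls, a gap of over 1 log2 unit between the groups. G6pc, which releases free glucose, rose from an already high level (12.96, 12.93 and 12.81) to 13.3, 13.32 and 13.21 (0.38 ± 0.07, limma adjusted p = 0.0102). Pck1, the other main enzyme of gluconeogenesis, read 13.06, 13.04 and 13 against 13.14, 13.03 and 12.95, so the groups overlapped. In the gluconeogenesis list 3 of 12 rose (G6pc, Got1 and Ppargc1a, all stable) and 1 fell. Among 28 genes that insulin represses or FoxO factors drive 7 rose and 3 fell (35.7%, median 0.08), with 6 called without Pparg null 2. Of these 4 rises and 2 falls were stable, the falls being Pdk4 and the arrestin-like Arrdc4 (-0.44 ± 0.07). The list's members thus did not share 1 direction, and Irs2, the insulin receptor substrate, was 0.41 ± 0.13 higher without passing (limma adjusted p = 0.0892).

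Of 23 promoters in that list 5 (21.7%) held the core of the insulin response element, CAAAACA, against 7.2% of all promoters. Those of Igfbp1, the largest stable change with the motif, and of G6pc, chosen after its value was seen, are shown with the motif in capitals. They lie at chr11:7197659-7197705 and chr11:101367522-101367568 (GRCm38.p6, both plus strand), and the motif begins 108 and 174 bases before the start.
Igfbp1: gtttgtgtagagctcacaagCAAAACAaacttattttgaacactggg
G6pc: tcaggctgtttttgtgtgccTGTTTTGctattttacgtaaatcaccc

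In glucose use Slc2a1, the widespread glucose transporter GLUT1, rose from 10.95, 11.09 and 10.98 to 11.36, 11.38 and 11.38 (0.36 ± 0.05, limma adjusted p = 0.00355). Hk2, the hexokinase of growing and insulin-responsive cells, rose by 0.39 ± 0.07. Transporters of the proximal tubule differed otherwise, with Slc5a2 (SGLT2) at -0.19 ± 0.11 and Slc2a2 (GLUT2) at -0.1 ± 0.07, neither past the threshold. Pdp2, the phosphatase that opposes the Pdk kinases, fell by 0.4 ± 0.07 alongside Pdk4, and Pdk2, the other main renal kinase, differed by -0.04 ± 0.07.

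Some brakes on mTORC1, the kinase complex that couples growth to nutrients, rose. Of 21 genes of the list 5 rose and none fell (median 0.03), 2 of them stable, and 2 were called without Pparg null 1. Ddit4 (REDD1), induced by hypoxia, glucocorticoids and lack of nutrients, read 10.34, 10.59 and 10.17 against 9.02, 8.98 and 8.74 (1.45 ± 0.21, 2.74-fold, limma adjusted p = 0.00374). Sesn1, a sestrin, read 9.94, 9.94 and 9.68 against 9.36, 9.47 and 9.33 (0.47 ± 0.07). Both genes had all Pparg null arrays above all controls. Hif3a, a subunit that restrains the hypoxia response, rose from 7.19, 7.29 and 7.43 to 8.51, 8.36 and 8.58 (1.18 ± 0.08, limma adjusted p = 8.33e-05). Vegfa, a direct target of hypoxia-inducible factors, differed by -0.05 ± 0.05, and of 29 hypoxia genes 4 rose and 1 fell (median 0.01), 3 of the rises stable, with 3 called without mixed control 1. Of 30 genes of serine and one-carbon metabolism and of the factor ATF4, 8 rose and none fell (median 0.08), but none was stable and 0 were called without mixed control 1 (12 at an unadjusted p under 0.05 with all arrays).

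Hormone-responsive genes moved in both directions. Zbtb16, a zinc finger factor induced by glucocorticoids, rose from 10.04, 10.39 and 10.6 to 11.33, 11.38 and 11.23, with the controls more spread out than the Pparg null arrays (0.97 ± 0.12, limma adjusted p = 0.00187). Cebpd, an acute-response factor, rose by 0.65 ± 0.11. In the glucocorticoid list of 20 genes 5 rose and 3 fell (median 0.11), 3 of the 8 stable and 3 called without mixed control 1. Sgk1, a classical kinase target, read 10.73, 11.09 and 10.94 against 11.05, 11.05 and 10.99 and overlapped. Dio1, which activates thyroxine, read 9.33, 9.59 and 8.85 against 10.74, 10.44 and 10.41 (-1.27 ± 0.2, 2.42-fold lower, limma adjusted p = 0.00531). The thyroid hormone receptors Thra (0.08 ± 0.08) and Thrb (-0.23 ± 0.08) did not pass. Edn1, the vasoconstrictor endothelin, rose from 7.12, 7.35 and 7.13 to 8.02, 8.04 and 8.1 (0.85 ± 0.08, 1.8-fold, limma adjusted p = 0.000509). Penk, which encodes the enkephalin precursor, rose by 1.11 ± 0.18.

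**Figure D2:**
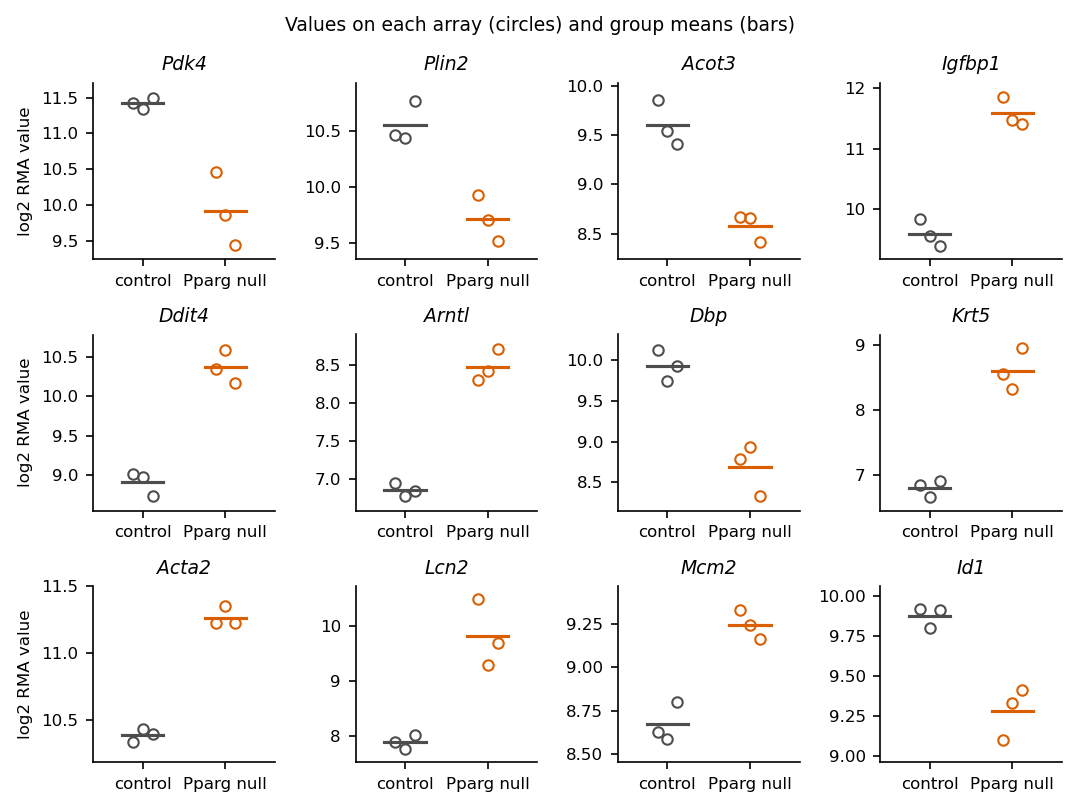
Log2 RMA values (vertical axis) on each mixed control and Pparg null array (circles, replicates 1 to 3 from left to right) with the group mean (bar) for 12 stable calls, each panel with its own vertical axis. In every panel the 3 Pparg null arrays lie wholly above or wholly below the 3 controls, as in Arntl (8.3 to 8.7 against 6.77 to 6.94) and Pdk4 (9.45 to 10.46 against 11.34 to 11.5).

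Genes of the circadian clock changed in both of its phases. Arntl, which encodes BMAL1, the activator of the loop, read 8.3, 8.41 and 8.7 in Pparg null kidneys and 6.94, 6.77 and 6.84 in controls (1.62 ± 0.11, 3.07-fold, limma adjusted p = 8.33e-05). Nfil3, a repressor that peaks with it, read 8.66, 8.66 and 8.96 against 7.28, 7.46 and 7.42 (1.37 ± 0.11, limma adjusted p = 0.000213). Both groups were narrow and lay more than 1 log2 unit apart. Clock, the partner of BMAL1, whose message cycles little, differed by 0.03 ± 0.05. Dbp, an output factor that BMAL1 activates and that peaks in the opposite phase, read 8.79, 8.94 and 8.34 against 10.13, 9.75 and 9.93 (-1.24 ± 0.19, limma adjusted p = 0.00456). Of 19 genes that peak opposite to Arntl 5 fell and none rose (26.3%, median -0.13), only Dbp stably, and 1 was called without Pparg null 2. The period gene Per3 fell by 0.56 ± 0.13 but missed the threshold when Pparg null 2 or 3, mixed control 1 or 2, or FVB control 3 was left out (highest limma adjusted p = 0.119). Per1, which also answers to glucocorticoids, was 0.29 ± 0.1 higher without passing, and Nr1d1, the repressor of Arntl, read 9.9, 10.59 and 10.14 against 10.62, 10.42 and 10.77 and overlapped. The hour at which each mouse was killed is not in the labels, and a difference in that hour between groups cannot be told apart from one in genotype.

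Clock elements were looked for in the same promoter windows. The core of the element for ROR and REV-ERB receptors, TAGGTCA, was in 2 of 4 promoters of genes in phase with Arntl (those of Arntl and Nfil3), against 2.97% of all promoters. The E-box CACGTG, on which BMAL1 acts, was in 5 of 15 promoters of the opposite phase (33.3%, against 8.09% of all) and the D-box TTATGNAA in 2 of 15 (13.3%, against 3.99%). Arntl, the largest stable change with its motif, is shown with Nfil3 and Per3, which were chosen after their values were seen. The windows are chr7:113207518-113207547 (plus strand), chr13:52981040-52981071 (minus strand) and chr4:151044796-151044890 (minus strand), GRCm38.p6, with the receptor element in capitals for Arntl and Nfil3 and the D-box for Per3. The element lies 30 bases after the start of Arntl and 12 before that of Nfil3, and the D-boxes lie 205 and 158 bases before that of Per3.
Arntl: cgacatttagggaaggcagaaagTAGGTCA
Nfil3: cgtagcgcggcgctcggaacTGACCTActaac
Per3: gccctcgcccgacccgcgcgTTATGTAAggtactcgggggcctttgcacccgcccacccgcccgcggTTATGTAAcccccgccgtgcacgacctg

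Proximal tubule genes fell in part. Of 38 markers 8 fell and none rose (21.1%, median -0.15), 2 of them stable, and 2 were called without Pparg null 2. Only 6 of the 38 were above 0, and 20 had an unadjusted p under 0.05. Dnase1 read 9.75, 9.51 and 9.05 in Pparg null kidneys and 10.94, 10.71 and 10.56 in controls (-1.3 ± 0.16, limma adjusted p = 0.00184). Cyp2e1, a cytochrome P450 of straight proximal segments, read 11.29, 11.18 and 11.09 against 12.3, 12.36 and 12.33, with a gap of about 1 log2 unit (-1.14 ± 0.16, limma adjusted p = 0.00284). Among defining genes of the segment Lrp2 (megalin) differed by -0.14 ± 0.05, close to the list's median. Slc34a1 (-0.01 ± 0.05), Aqp1 (-0.04 ± 0.06) and Fbp1 (-0.05 ± 0.05) barely differed, and none of these genes passed the threshold.

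Carriers for organic anions and cations, which clear drugs and urate, included 13 falls and 1 rise among 39 genes (35.9%, median -0.2). Of the falls 2 were stable, and 2 were called without Pparg null 3. Slc22a27, an anion carrier, read 7.01, 7.37 and 7.34 against 8.6, 8.0 and 7.85 (-0.91 ± 0.16, limma adjusted p = 0.011). Slc22a4, the ergothioneine carrier OCTN1, read 9.43, 9.63 and 9.36 against 10.1, 9.94 and 9.89 (-0.5 ± 0.08, limma adjusted p = 0.0049). In the wider family of 377 solute carriers 30 fell and 13 rose, 7 and 2 of them stable, and the 43 calls became 12 without mixed control 1. Slc6a20b, a proline carrier of the brush border, fell by 0.35 ± 0.06, and Slc40a1, the iron exporter ferroportin, by 0.39 ± 0.05. Several carriers and enzymes of this segment differ between male and female mice, and in a list of 21 such genes 6 fell and 2 rose (38.1%, median -0.35, 3 called without Pparg null 2). Its stable members were Cyp2e1, the ferritin receptor Timd2 (7.5, 7.72 and 7.4 against 6.18, 6.17 and 6.76, 1.17 ± 0.15) and Cyp2j13 (0.87 ± 0.16). The sex-linked genes did not separate the groups. Xist read 12.21 to 12.24 against 12.24 to 12.34 and Kdm5d, on the Y chromosome, 4.43 to 4.75 against 4.52 to 4.75. Olfactory receptor genes averaged 4.32 to 4.39 on these arrays, so Kdm5d was near the floor in both groups while Xist was high. The sex of the pools was not tested.

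Other metabolic enzymes with large stable falls were Cyp2c23, the arachidonic acid epoxygenase (-1.13 ± 0.12, 9.89, 9.41 and 9.69 against 10.65, 10.8 and 10.9), and Osgin1, an oxidative stress response gene (-0.84 ± 0.08, limma adjusted p = 0.000305). Osgin1 read 8.22, 8.01 and 7.89 in Pparg null kidneys and 8.97, 8.81 and 8.85 in controls. Hdc, which makes histamine, fell by 0.87 ± 0.12, Ptgds, a prostaglandin D2 synthase, by 0.74 ± 0.09 and Nmrk1, a nicotinamide riboside kinase, by 0.7 ± 0.08. The glucuronosyltransferase Ugt2b5 fell by 0.78 ± 0.13. Of 32 targets of the antioxidant regulator NRF2, Osgin1 among them, 3 fell and none rose (median -0.04), and the standard target Nqo1 differed by -0.06 ± 0.08.

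Along the nephron the segments differed in how many of their markers moved. In the thick ascending limb 1 of 16 rose and 1 fell (median 0.06), the rise being Ptger3, a prostaglandin E2 receptor (0.48 ± 0.05, 9.76, 9.68 and 9.65 against 9.13, 9.19 and 9.33). In the distal convoluted tubule limma called none of 14 (2 at an unadjusted p under 0.05, median 0.0), and the thiazide-sensitive carrier Slc12a3 differed by -0.11 ± 0.06. Principal cells of the collecting duct had 7 rises and no fall among 24 markers (29.2%, median 0.1), 2 of them stable, and 2 were called without Pparg null 2. Besides Krt19 the stable one was Scnn1a, the α subunit of the epithelial sodium channel, which read 11.5, 11.4 and 11.42 against 11.07, 11.16 and 11.06 (0.35 ± 0.05, limma adjusted p = 0.00527). Aqp2, the vasopressin-regulated water channel, read 10.75, 10.83 and 10.97 against 10.38, 10.52 and 10.21 with no overlap (0.48 ± 0.1, limma adjusted p = 0.022). Leaving out Pparg null 2 or 3, or mixed control 1 or 3, ended this call (highest limma adjusted p = 0.0819). Avpr2, the vasopressin receptor, differed by 0.09 ± 0.08. Intercalated cells had 1 rise among 21 (median 0.04) and podocytes 2 among 21 (median 0.09), none of these stable. Wnk3, a kinase that regulates sodium and chloride carriers, rose from 6.8, 6.81 and 7.06 to 8.02, 7.8 and 8.29 (1.15 ± 0.16, 2.22-fold, limma adjusted p = 0.0029).

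Keratins of basal and ductal epithelium were among the largest rises. Krt5, which marks basal cells of the urothelium lining the renal pelvis, read 8.55, 8.32 and 8.95 in Pparg null kidneys and 6.86, 6.67 and 6.91 in controls (1.8 ± 0.14, 3.47-fold, limma adjusted p = 0.00018). Its partner Krt14 read 7.84, 7.28 and 7.88 against 6.68, 6.69 and 6.74 (0.97 ± 0.14), and Krt15, also of basal cells, 7.4, 7.08 and 7.19 against 6.57, 6.39 and 6.57 (0.71 ± 0.09). In all 3 genes Pparg null 2 was the lowest of its group and still above every control. Krt19, of ducts and urothelium, rose by 1.25 ± 0.2. Among 31 basal urothelial and keratin genes 9 rose and none fell (29.0%, median 0.21), 5 of them stable, and 5 were called without Pparg null 3. The defining factor of basal cells, Trp63, read 6.78, 6.84 and 6.8 against 6.65, 6.77 and 6.77 and did not pass (0.07 ± 0.05, limma adjusted p = 0.461). Serpinb5 (maspin), a serpin of basal epithelium, rose from 4.58, 4.5 and 4.4 to 5.3, 5.37 and 5.03 (0.74 ± 0.09). Its control values were near the floor, as olfactory receptor genes averaged 4.32 to 4.39 on those arrays. Of all 52 keratins measured 7 rose and none fell, 4 of them stable, and 4 were called without Pparg null 3.

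Markers of the superficial urothelium had no common direction. Upk1b, a uroplakin of the watertight surface plaque, read 6.98, 6.93 and 6.93 against 7.98, 7.7 and 7.88 (-0.91 ± 0.15, limma adjusted p = 0.0083). Upk1a differed by -0.48 ± 0.14, Upk3a by -0.21 ± 0.09 and Upk2 by -0.18 ± 0.08, none of which passed. Of 21 superficial markers 2 rose and 2 fell (median -0.02, 10 above 0), 1 stable each way, with 2 called without Pparg null 2. The stable fall was Upk1b and the stable rise was Klf5, a zinc finger factor of urothelium (0.46 ± 0.07). Outside the list, the small proline-rich genes Sprr2f (1.17 ± 0.18) and Sprr2g (0.8 ± 0.13), whose family members are close copies, rose stably. Sprr2f read 4.79 to 5.73 against 4.0 to 4.24 and Sprr2g 4.47 to 5.05 against 3.74 to 4.08. Their control values were near the floor, since olfactory receptor genes averaged 4.32 to 4.39 on the control arrays. Gabrp, a GABA receptor subunit known from ducts, rose from 6.16, 6.07 and 6.03 to 7.45, 7.05 and 7.15 (1.13 ± 0.16, limma adjusted p = 0.0029). How much pelvic tissue each pool held is not known, and its part in these differences was not tested.

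**Figure D3:**
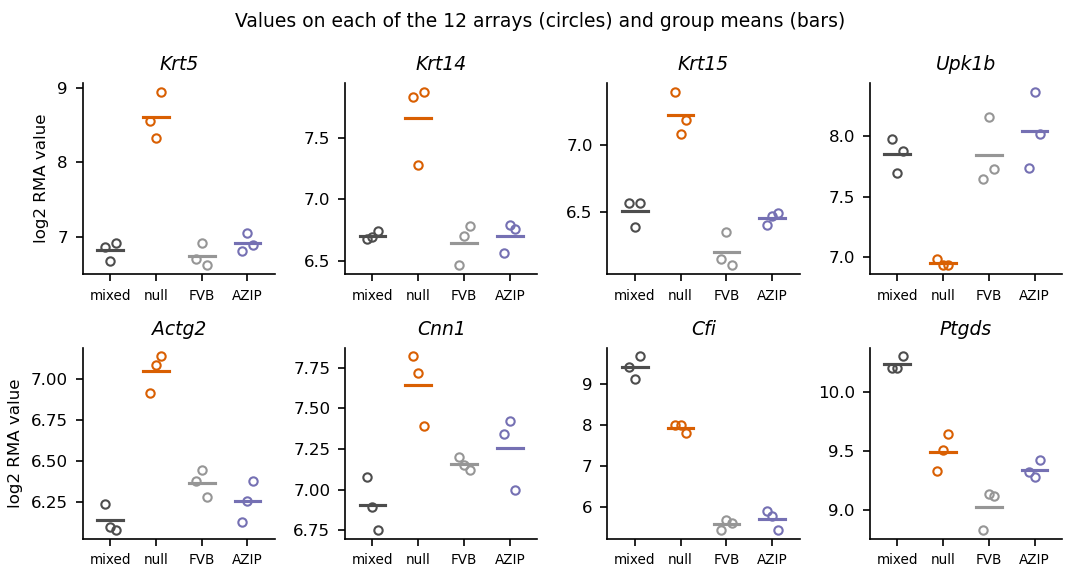
Log2 RMA values on all 12 arrays (circles) and group means (bars) of mixed control, Pparg null, FVB control and AZIP kidneys for 4 urothelial, 2 smooth muscle and 2 other genes, each panel with its own vertical axis. Krt5 is high on the Pparg null arrays alone (8.32 to 8.95), Upk1b is low on the same arrays alone (6.93 to 6.98), and Cfi is far lower on FVB and AZIP arrays (5.44 to 5.9) than on either mixed-background group.

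Part of the smooth muscle genes rose, the smooth muscle actins among them. Of 31 members 11 rose and none fell (35.5%, median 0.2), 6 of them stable, and 6 were called without Pparg null 2. Acta2, the α-actin of smooth muscle, read 11.22, 11.35 and 11.22 against 10.33, 10.43 and 10.39, with no overlap and little spread (0.88 ± 0.11, 1.84-fold, limma adjusted p = 0.00185). Actg2, the γ-actin of visceral muscle, read 6.92, 7.09 and 7.14 against 6.24, 6.1 and 6.08 (0.91 ± 0.08, limma adjusted p = 0.000305). Calponin, Cnn1, rose by 0.74 ± 0.13, Tagln (SM22) by 0.63 ± 0.1, Csrp1 by 0.52 ± 0.08 and the creatine kinase Ckb by 0.48 ± 0.08. The myosin heavy chain Myh11 read 9.12, 8.94 and 8.76 against 8.63, 8.72 and 8.47 and did not pass (0.33 ± 0.1, limma adjusted p = 0.0701).

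Part of the stromal and matrix genes rose as well. Of 44 interstitial matrix genes 12 rose and none fell (27.3%, median 0.23), 39 were above 0, and 2 rises were stable, with 3 called without mixed control 1. Col12a1, a collagen that decorates fibrils, read 8.59, 8.84 and 9.07 against 7.63, 7.88 and 7.86 (1.04 ± 0.15, limma adjusted p = 0.00355). Tnc, the tissue-repair glycoprotein tenascin C, read 8.56, 8.88 and 8.91 against 7.97, 8.15 and 8.1 (0.71 ± 0.11, limma adjusted p = 0.00551). The main fibrillar collagens differed less, with Col3a1 at 0.23 ± 0.07 and not past the threshold (limma adjusted p = 0.0825). Hmcn1, a giant matrix protein of tissue junctions, rose by 0.94 ± 0.13. In the basement membrane list of 30 genes 5 rose and none fell (median 0.18), with 10 called without Pparg null 1 and 1 without Pparg null 3, and the stable one was Lama3, a laminin chain of epithelia (9.68, 9.51 and 9.59 against 8.98, 8.99 and 8.99, 0.61 ± 0.07). Fibroblast and pericyte markers gave 5 rises and no fall in 27 (median 0.07, with 3 called without mixed control 1), Penk, Vim and Rgs5 among them as stable calls, whereas Pdgfrb (0.05 ± 0.06) and Pdgfra (0.1 ± 0.07), which define these cells, did not pass.

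Genes known from tubular injury rose in the Pparg null kidney. Of 30 members 11 rose and none fell (36.7%, median 0.26), 5 of them stable, and 5 were called without Pparg null 3. Lcn2, the lipocalin NGAL released by stressed tubules and by neutrophils, read 10.5, 9.29 and 9.69 against 7.88, 7.75 and 8.01 (1.94 ± 0.24, 3.85-fold, limma adjusted p = 0.00184). Even the lowest Pparg null array lay more than 1 log2 unit above every control. S100a6, a calcium-binding protein of proliferating epithelium, rose by 0.83 ± 0.13 (7.93, 8.17 and 8.31 against 7.24, 7.3 and 7.36). Vim, the filament of mesenchymal and dedifferentiated cells, rose by 0.48 ± 0.08, and Anxa3 by 0.53 ± 0.08. Havcr1 (KIM-1), the usual marker of injured proximal tubule, read 8.14, 6.78 and 7.31 against 6.97, 6.65 and 7.51, so that only Pparg null 1 lay above the controls (0.36 ± 0.35, limma adjusted p = 0.614).

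Markers of immune cells were mixed, and array Pparg null 1 was high in many of them. S100a8, of neutrophils and activated epithelium, read 5.81, 5.79 and 5.62 against 5.0, 4.92 and 5.06 (0.74 ± 0.07, limma adjusted p = 0.000305), and Ngp, of neutrophil granules, rose by 0.82 ± 0.13. In the neutrophil list of 23 genes 5 rose and 1 fell (median 0.17), 3 of the rises stable, and 3 were called without mixed control 1. Ms4a4a, a membrane protein of macrophages, read 7.03, 6.99 and 7.51 against 5.73, 5.9 and 5.97 (1.31 ± 0.15, limma adjusted p = 0.00145). The defining macrophage genes Adgre1 (0.15 ± 0.21), Cd68 (0.17 ± 0.15) and Csf1r (-0.07 ± 0.09) did not pass. Of 32 macrophage genes 2 rose, 1 of them stable, and 27 were above 0 (median 0.24). In antigen presentation limma called none of 19 genes (2 at an unadjusted p under 0.05, and 3 called without Pparg null 2). The median was 0.32, with 14 above 0. H2-Ab1 read 11.89, 10.29 and 11.27 against 10.35, 10.03 and 10.99, and Cd74 11.93, 10.09 and 11 against 10.36, 10.03 and 10.96, the highest value in both genes being that of Pparg null 1. Mean levels of the macrophage list were 7.94, 7.34 and 7.53 on the Pparg null arrays and 7.34, 7.21 and 7.47 on the controls. Among genes of T, NK and B cells limma called none of 29 (0 at an unadjusted p under 0.05). The stable rises of Lcn2, S100a8, Ngp and Ms4a4a also passed with Pparg null 1 left out, as every stable call did.

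In complement, Cfi, the protease that inactivates C3b, fell to 8.0, 8.0 and 7.81 from 9.43, 9.14 and 9.68 (-1.48 ± 0.14, 2.79-fold lower, limma adjusted p = 0.000361). Serping1, the inhibitor of the first complement proteases, rose from 10.94, 10.92 and 11.05 to 11.45, 11.27 and 11.47 (0.42 ± 0.07). Coagulation factor V, F5, fell by 0.79 ± 0.12 and the factor XIII subunit F13a1, of macrophages and platelets, rose by 0.86 ± 0.15. Among 28 acute-phase genes linked to STAT3 5 rose and 1 fell (median 0.16), with 2 called without Pparg null 3. The stable ones included Pim1, a kinase induced by STAT signals, at 9.23, 9.0 and 9.27 against 8.61, 8.73 and 8.74 (0.47 ± 0.07). Socs3, the direct feedback target of that pathway, differed by 0.06 ± 0.06.

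Cell cycle genes were shifted upward as a list, with few of them stable. Of 50 members 13 rose and none fell (26.0%), 49 were above 0 and the median was 0.42, but the count was 2 without mixed control 1. Mean levels of the list were 8.59, 8.29 and 8.31 on the Pparg null arrays and 8.08, 7.7 and 8.17 on the controls, mixed control 2 being lowest. Mcm2, a subunit of the replicative helicase, read 9.33, 9.24 and 9.16 against 8.63, 8.59 and 8.8 (0.57 ± 0.09, limma adjusted p = 0.00579). Ccnd1, the cyclin that starts the cycle, read 12.1, 12.16 and 12.1 against 11.65, 11.63 and 11.82 (0.42 ± 0.06, limma adjusted p = 0.00355). Of the 6 Mcm genes 5 rose (median 0.51), Mcm2 alone was stable, and 1 was called without Pparg null 1. Mki67, the usual marker of dividing cells, read 9.85, 9.36 and 9.45 against 9.3, 8.29 and 9.36, so that mixed control 2 alone lay far below the rest (0.57 ± 0.34, limma adjusted p = 0.39). Stable rises in replication and repair outside the list, chosen after their values were seen, were the chromatin assembly subunit Chaf1b (0.63 ± 0.12), the helicase Blm (0.49 ± 0.06), Atad5 (0.48 ± 0.09), Rad18 (0.4 ± 0.06) and Dclre1b (0.39 ± 0.07).

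The E2F elements TTTCCCGC, TTTGGCGC and TTTCGCGC, on which the factors that switch on replication genes act, were found in 9 of 38 promoters of the cell cycle list (23.7%), against 2.12% of all promoters. No stable call of the list held one. Mcm6 is shown, chosen after its value was seen, because its window holds 3 matches, of which the first and second share bases, from 110 to 47 bases before the start (chr1:128359725-128359835, minus strand, GRCm38.p6, matches in capitals). It rose by 0.71 ± 0.16 but lost the threshold without any one of 5 arrays (limma adjusted p up to 0.105 without mixed control 1).
Mcm6: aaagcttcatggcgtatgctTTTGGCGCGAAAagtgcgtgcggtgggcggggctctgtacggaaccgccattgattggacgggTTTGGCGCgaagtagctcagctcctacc

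All 4 Id genes, inhibitors of basic helix-loop-helix factors and standard targets of BMP signals, fell stably. Id1 read 9.1, 9.33 and 9.41 against 9.92, 9.8 and 9.91 (-0.6 ± 0.1, limma adjusted p = 0.00579). Id2 fell by 0.53 ± 0.08, Id3 by 0.45 ± 0.06 and Id4 by 0.5 ± 0.05, each with no overlap between the groups. These 4 were the only stable calls among 28 genes of TGF-β and BMP responses, where 5 fell and 1 rose (median 0.07). Klf10, induced early by TGF-β, fell from 8.46, 8.5 and 8.71 to 7.59, 7.61 and 7.44 (-1.01 ± 0.09, 2.01-fold lower, limma adjusted p = 0.000305), while the TGF-β target Ccn2 differed by 0.11 ± 0.13. Immediate early genes, which respond within minutes to growth signals and to handling, had 5 rises and 1 fall among 30 (median 0.16). Nr4a1 read 7.81, 8.38 and 8.41 against 7.21, 7.41 and 7.21 (0.92 ± 0.14), Fosl2 rose by 0.67 ± 0.09 and Btg2 by 0.64 ± 0.08. Fos, the most handling-sensitive of them, read 6.19, 6.44 and 6.47 against 5.74, 6.18 and 6.27 and did not pass (0.3 ± 0.12, limma adjusted p = 0.188). In the nephron patterning list Tmem100, a membrane protein of BMP-responsive endothelium, rose from 6.97, 7.2 and 7.24 to 7.99, 8.31 and 8.09 (1.0 ± 0.09, limma adjusted p = 0.000305).

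Many of the 40 largest stable rises and 40 largest stable falls lay outside these lists. Arhgef37, a guanine nucleotide exchange factor, read 7.75, 7.74 and 7.61 against 6.31, 6.5 and 6.66 (1.21 ± 0.12, limma adjusted p = 0.000485). Ppbp, a platelet chemokine, rose by 1.13 ± 0.19 (7.1, 6.6 and 7.7 against 6.01, 6.08 and 5.93), with the Pparg null arrays far more spread out than the controls. Further rises were those of Tmem252 (1.11), the aldo-keto reductase Akr1b8 (1.03), the secreted factor Ndnf (0.89), Slitrk1 (0.88), Tmem37 (0.8), the arrestin-like Arrdc3 (0.78), Rasd1 (0.75) and Tmem45a (0.75), where Rasd1 is a small G protein known to respond to glucocorticoids. Fcamr, an Fc receptor for IgA and IgM, read 6.32, 6.39 and 6.3 against 7.52, 7.32 and 7.3 (-1.05 ± 0.12, limma adjusted p = 0.00111), so that its groups lay wide apart. Further falls were those of Rdh18-ps (-0.96), Zpld1 (-0.94), dihydropyrimidinase Dpys (-0.93), the small nucleolar RNA Snord14e (-0.86), asparaginase Aspg (-0.84), the calcineurin inhibitor Rcan1 (-0.8), the AMPK subunit Prkag3 (-0.8), Prxl2b (-0.79), Prrg4 (-0.79), Abhd1 (-0.72), Gdpd3 (-0.68), Ankrd6 (-0.67), Syt12 (-0.66) and Sytl4 (-0.63).

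**Figure D4:**
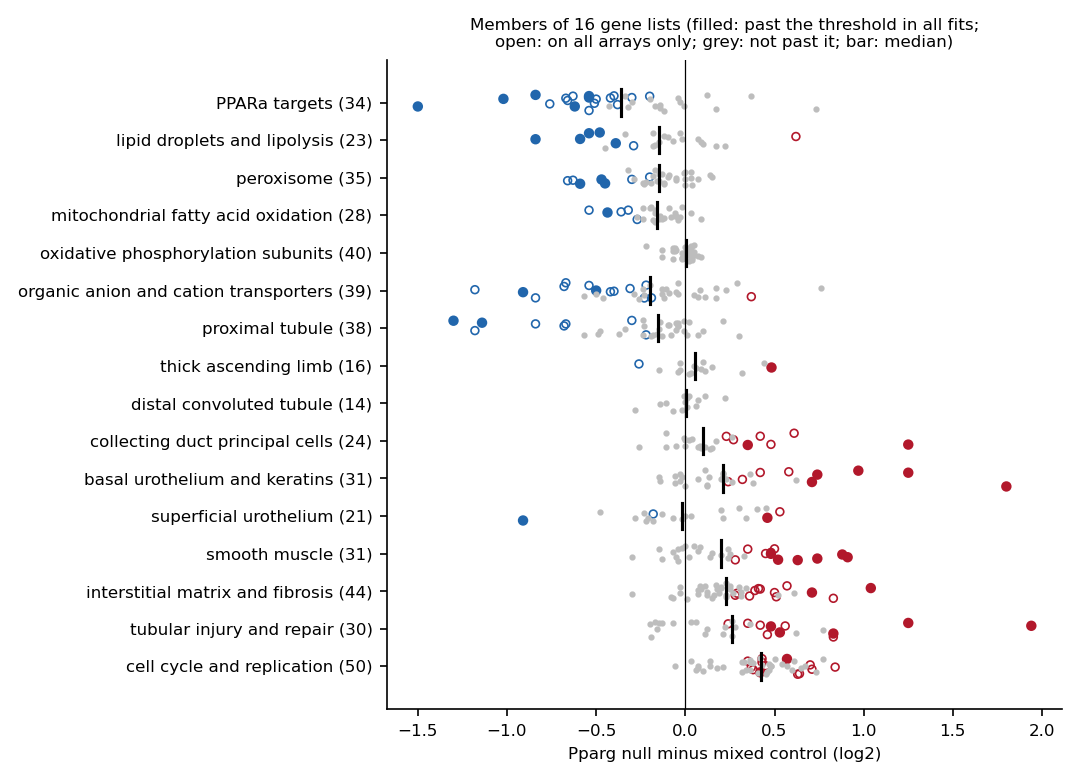
Each point is 1 measured member of 16 gene lists, with its difference Pparg null minus mixed control (log2) on the horizontal axis and the list with its number of measured members on the vertical axis. Filled points are stable calls, open points are called with all arrays only, grey points are not called, and bars are medians, which run from -0.36 for PPARα targets to 0.42 for the cell cycle.

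The AZIP line served to see which of the 262 stable differences also occur in kidneys of another line without fat tissue. AZIP kidneys had 485 genes called against FVB controls (2.43% of all genes). Of the 262 genes 110 were called there in the same direction (42.0% of the 262 and 22.7% of the 485), and 0 in the opposite direction. No array is shared by the contrasts, but the spread of each gene was estimated from all 12 arrays. The difference was of the same sign in 250 of the 262, and its size was larger in Pparg null kidneys in 241. Since the 262 were chosen on the Pparg null contrast, the count of 241 is a description. The share of all genes with the same sign in both contrasts was not counted, so the 250 has no background beside it. Ddit4 (1.45 against 1.54), Edn1 (0.85 against 0.77), Wnk3 (1.15 against 1.05), Zbtb16 (0.97 against 0.84) and Penk (1.11 against 1.29) were called in both lines, with close values in Pparg null and AZIP kidneys. Igfbp1 (1.99 against 1.26), Arntl (1.62 against 0.77), Nfil3 (1.37 against 0.68) and Hif3a (1.18 against 0.98) were also called in both lines. Their rises were smaller in AZIP kidneys, but the difference between the effects passed the test in none of them. Pdk4 (-1.5 against -0.62), Plin2 (-0.84 against -0.36) and Dio1 (-1.27 against -0.51) were called in the Pparg null kidneys alone, without a difference between the effects that passed the test (limma adjusted p = 0.834, 0.817 and 0.834).

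The difference of both effects itself was tested for every gene. Limma called 4 of 19938 (0.0201%), all of them stable calls of the Pparg null comparison, and 1160 had an unadjusted p under 0.05 (5.82%). They were Krt5, Actg2, Cfi and Ptgds. Cfi was far lower on FVB and AZIP arrays than in either mixed-background group, and whether that level limited a fall there was not tested. Krt5 read 6.8, 7.05 and 6.88 in AZIP and 6.7, 6.91 and 6.61 in FVB kidneys, an overlap where the mixed-background groups lay 1.8 apart (difference of effects 1.63, limma adjusted p = 0.0215). Actg2 read 6.13, 6.26 and 6.38 in AZIP and 6.38, 6.45 and 6.28 in FVB kidneys (difference of effects 1.03, limma adjusted p = 0.0206). None of the 4 calls was stable, each being lost without AZIP 1, AZIP 2 or FVB control 2 among other arrays (limma adjusted p up to 0.0625 for Actg2 and 0.0915 for the others). Krt14 (0.97 against 0.06), Upk1b (-0.91 against 0.2) and Cnn1 (0.74 against 0.1) had the same pattern of values without passing that test (limma adjusted p = 0.374, 0.332 and 0.606). Timd2 (1.17 against -0.3, limma adjusted p = 0.0552) and Hdc (-0.87 against 0.33, limma adjusted p = 0.0558) came nearest to the threshold among the other genes named here. The lines differ in strain as well as in genotype, and in this contrast those cannot be told apart.

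**Figure D5:**
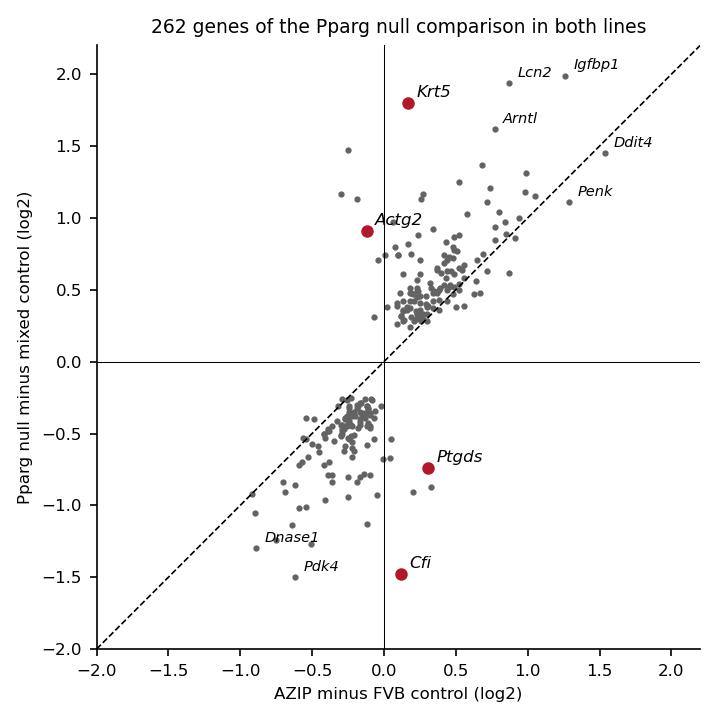
Each point is 1 of the 262 stable calls, with the difference AZIP minus FVB control (log2) on the horizontal axis and Pparg null minus mixed control (log2) on the vertical axis, the dashed line marking equal differences. Most points lie in the quadrants of equal sign (250 of 262), and the 4 red points, Krt5, Actg2, Cfi and Ptgds, are the genes whose effects differed by limma's test.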

How the data were processed

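Whole-kidney RNA was measured on Affymetrix MoGene 1.0 ST arrays. The authors deposited log2 RMA values, which the submitters' processing notes credit to Expression Console with no version or build. RMA sets arrays to 1 distribution, so a shift of all genes would not show. Of 35556 probe sets 21789 carried 1 gene symbol, of which 21698 were updated through RefSeq by Entrez number, and the probe set with the highest mean was kept for each of 19938 genes. Groups came from the labels.

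Limma 3.58.1 (R 4.3.3) fitted 4 group means to the 12 arrays, with 8 residual and 3.71 prior degrees of freedom and Benjamini-Hochberg adjustment over all genes. The fit was tested on simulated data with independent normal noise. It called 42.0% of changes of 0.3, 68.0% of changes of 0.5 and 100.0% of changes of 1.0, with 7 false calls among 19738 unchanged genes. A gene that was not called may thus still differ by a small amount. Each array being a pool of 3 mice, p-values measure the spread between pools. The members and lists were chosen with earlier results of these data known. Genes named are Pparg, the 40 largest stable changes each way (predicted genes left out) and calls in the difference of effects, and, for the lists described, genes drawn from the called members with the smallest p (up to 6) and the key members. Alternatives were other filters, normalizations, variance models, the 6 arrays alone, a replicate block and leaving out each array.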

Additional observations from a re-analysis of the deposited data

Results flagged for a closer look

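The effect of the Pparg null genotype (against mixed controls) and of the AZIP line (against FVB controls) differed by limma's test of the difference itself in 4 genes. Actg2 was 0.91 higher in Pparg null kidneys and differed by -0.12 in AZIP kidneys, a difference of effects of 1.03 (limma adjusted p = 0.0206). Krt5 was 1.8 higher and 0.17 higher (1.63, limma adjusted p = 0.0215). Cfi differed by -1.48 and 0.12 (-1.6, limma adjusted p = 0.0215), but it was far lower on FVB and AZIP arrays. Whether that level limited a fall there was not tested. Ptgds differed by -0.74 and 0.31 (-1.05, limma adjusted p = 0.0215). Each call was lost without AZIP 1, AZIP 2 or FVB control 2. Others were lost without Pparg null 3 (Cfi), mixed control 1 (Krt5, Cfi, Ptgds), mixed control 2 (Krt5, Ptgds), mixed control 3 (Ptgds), AZIP 3 (Krt5, Ptgds) and FVB control 1 or 3 (Cfi). The highest adjusted p was 0.0625 for Actg2 and 0.0915 for Krt5, Cfi and Ptgds. Strain and genotype cannot be told apart in this contrast.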

How the results depend on the processing

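The 1055 calls became 667 with a replicate block, 607 on the 6 arrays alone (349 higher, 258 lower), 1938 at an adjusted p under 0.10 and 181 with a fold change of at least 1.5, and ranged from 330 to 1220 with 1 array left out. Under the other settings run they ranged from 805 (all probe sets) to 1500 (array weights). Shifting each array to 1 median changed the split to 488 higher and 605 lower. The 4 differences of effects became 1 with genes below percentile 50 of mean level left out, 2 with the block, 0 over all probe sets and 7 at an adjusted p under 0.10, and ranged from 0 (without AZIP 1, AZIP 2 or FVB control 2) to 9 (without Pparg null 2) with 1 array left out. Of the 262 stable calls 259 passed with the block and 253 on the 6 arrays alone. Same-numbered Pparg null and control arrays deviated together with r of 0.184, 0.179 and 0.009, against -0.26 to 0.147 for arrays of different number. The labels state no pairing and these few values cannot settle whether there is one, so the block count is given beside the main one. No named gene that was called with all arrays changed sign in any setting run. Genes near 0 that were not called did so, such as Pck1 (-0.007 with all arrays, 0.042 without mixed control 1).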

Other observations

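Of 347 genes named as Zfp zinc finger proteins 20 fell and 1 rose (median -0.05), with 5 called without mixed control 2. The share called, 6.05%, was near the 5.29% of all genes. The stable falls were Zfp708 (-0.53), Zfp661 (-0.39), Zfp72 (-0.36) and Zfp809 (-0.27). Such genes lie in clusters of close copies, and shared probe signal was not tested. Of 1027 olfactory receptor genes, which kidneys are not known to use widely, 1 fell (0.0974%).

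Around the Pparg gene 50 neighbours, 25 on each side in RefSeq order, had 2 calls (4.0%), Fancd2os (-0.33) and Rassf4 (0.49), neither stable. Among 13767 probe sets without a single gene symbol 159 were called (1.15%, 107 higher and 52 lower) in a fit over all 35556 probe sets.

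Ttn, the giant spring protein of striated muscle, was the stable fall among 19 skeletal muscle genes. In the adrenal list 1 of 17 genes rose, the corticotropin receptor Mc2r (0.42), a call that ended when Pparg null 2 or any mixed control was left out (highest limma adjusted p = 0.0833).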
